A study of Mus musculus with 6 samples.

Results

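The genes described here are 34 lysosomal hydrolases, lipid-handling proteins and membrane proteins and 24 genes whose symbols mark them as parts of the vacuolar proton pump. They were chosen by name: 35 listed lysosomal genes, and every symbol that begins with Atp6v0 or Atp6v1 or is Atp6ap1 or Atp6ap2. Of these 59 symbols, 58 were measured on a probe set with exactly 1 gene symbol, out of 22180 genes in all. Glb1, which encodes beta-galactosidase, shared its probe set with another symbol and has no value here. Atp6v1fnb matched the naming pattern but is a neighbouring gene of Atp6v1f and encodes no pump subunit.

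The values came from 6 expression arrays of mouse melanocyte cultures, 3 of each of 2 immortal lines. The wild-type line was melan-Ink4a-Arf-1 (melan-a), and the other was heterozygous for Sox10LacZ, in which a lacZ insertion disrupts an allele of Sox10, a transcription factor gene of the melanocyte lineage. Both lines lacked Ink4a-Arf (Cdkn2a tm1RDp/tm1RDp) and carried a C57BL/6J background after backcrossing, and the heterozygous line was derived from 3-day-old mice. Both grew in 10% serum and 10% CO2 with 200 nM of a phorbol ester (12-O-tetradecanoylphorbol 13-acetate) and 200 pM cholera toxin. Because a single cell line stood for each genotype, effects of genotype and of the line cannot be told apart. Nothing in the labels says that replicates were separate cultures, so the p-values reflect the spread among these arrays alone, which may be technical.

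The lysosome digests proteins, sugars and lipids with enzymes that work at acid pH. That acidity comes from the vacuolar ATPase, whose peripheral V1 sector splits ATP and whose membrane V0 sector carries protons. In melanocytes the same pump and several of the same proteins also reach melanosomes, the pigment organelles related to lysosomes. Many lysosomal genes carry a palindromic E-box, the CLEAR element, that is bound by the transcription factors TFEB and TFE3, relatives of the melanocyte factor MITF.

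That element was searched for in RefSeq promoter windows (GRCm38.p6) that ran from 250 bases before to 50 bases after each annotated start. A window was found for 47 of the 58 genes. Its core, TCACGTGA, was present on either strand in 7 of them (14.9%), against 304 of 27025 genes in the promoter table (1.12%). The other 40 genes had no match in the window. The sites are shown for every gene whose window held the core, and the difference in share was not tested. Each is printed as 30 bases, 5′ to 3′ on the strand of the gene, with the core in capitals.
Ctsd, chr7:142387908-142387937, minus strand: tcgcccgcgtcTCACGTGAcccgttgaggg
Ctsa, chr2:164833749-164833778, plus strand: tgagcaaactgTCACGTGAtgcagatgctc
Ctsa, chr2:164833766-164833795, plus strand: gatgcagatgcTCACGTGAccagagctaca
Gla, chrX:134601215-134601244, minus strand: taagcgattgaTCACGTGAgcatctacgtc
Gla, chrX:134601182-134601211, minus strand: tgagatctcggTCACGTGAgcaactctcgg
Cln3, chr7:126583340-126583369, minus strand: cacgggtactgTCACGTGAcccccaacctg
Atp6v0d1, chr8:105566050-105566079, minus strand: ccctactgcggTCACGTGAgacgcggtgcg
Atp6v0e, chr17:26676387-26676416, plus strand: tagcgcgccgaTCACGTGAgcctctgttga
Atp6v1a, chr16:44139373-44139402, minus strand: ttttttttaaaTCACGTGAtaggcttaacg
Counted from the start site as 0, the first base of the core lay at -99 in Ctsd, at -132 in Atp6v1a, at -4 in Atp6v0d1 and at 2 in Atp6v0e.

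The shorter E-box CACGTG, which the CLEAR core contains, was present in the windows of 15 of the 47 genes (31.9%), against 8.09% of all genes in the table. The M-box TCATGTG, a form bound by MITF, was present in 6 (12.8%, against 4.31%). The SOX core ACAAAG was present in 4 (8.51%, against 21%): Atp6v0e2, Atp6v1e2, Atp6v1g2 and Ctss. These are matches of letters on either strand and were not tested as binding sites.

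Signal on every array is on a log2 scale, and a difference is the heterozygous mean minus the wild-type mean. A gene passed when its Benjamini-Hochberg adjusted p from limma, over all 22180 genes, was below 0.05. Of the 58 genes, 15 passed, of which 7 had higher and 8 had lower signal in heterozygous cells, against 13.4% of all genes (7.46% higher and 5.92% lower). Among the 14668 genes whose mean signal exceeded 5.20, the 40th percentile over probe sets, 18.7% passed (10.5% higher and 8.23% lower). Among the 34 lysosomal genes, 5 were higher and 7 lower, and among the 24 pump genes 2 were higher and 1 was lower. The median difference was -0.08 over the lysosomal genes and -0.05 over the pump genes, against 0.001 over all genes. The median size of the difference was 0.27 for the lysosomal genes and 0.15 for the pump genes, against 0.12 over all genes. The ranges of the lines were separate for 19 of the 34 lysosomal genes and 8 of the 24 pump genes, against 31.6% of all genes and 40.1% of the brighter genes. Only Ctsk and Sgsh both passed and differed by over 2-fold, against 3.53% of all genes.

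**Figure D1:**
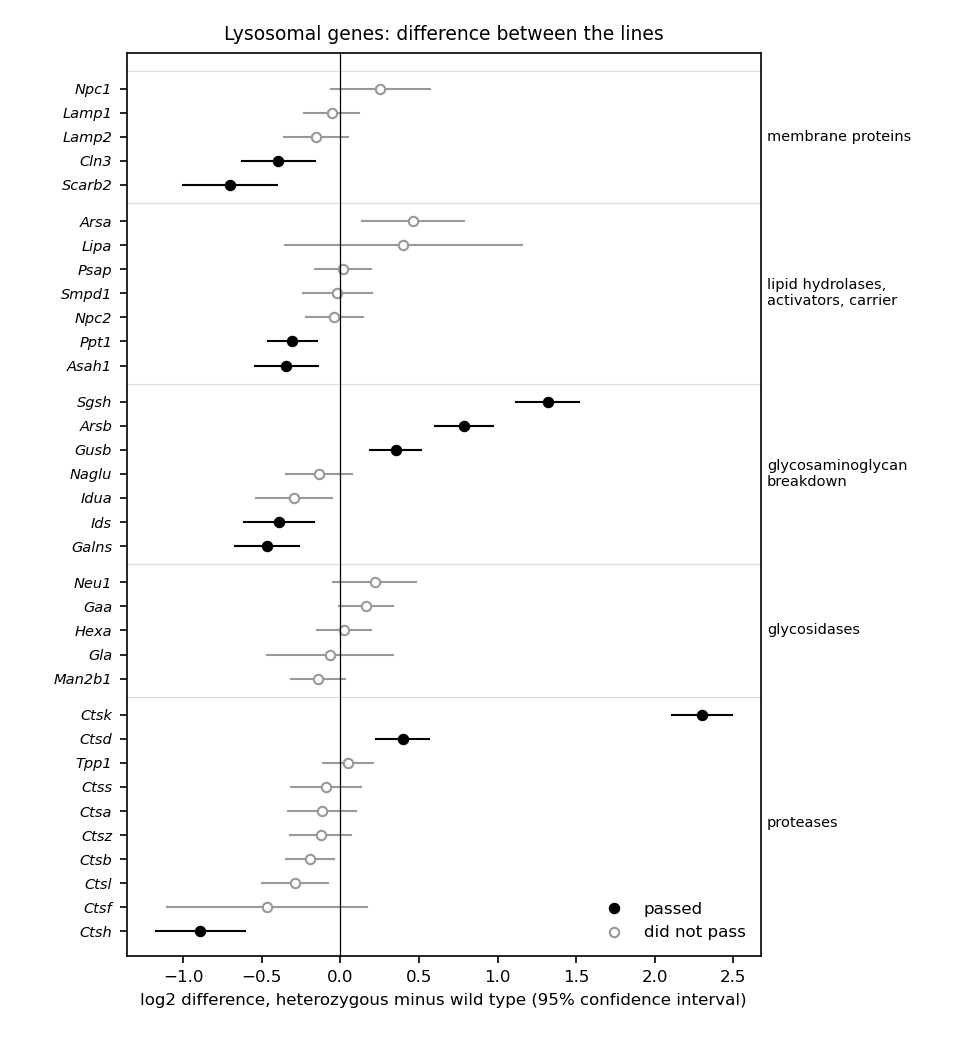
Log2 difference, heterozygous minus wild type, for each of the 34 lysosomal genes with its 95% confidence interval, grouped by role. Ctsk (2.30) and Sgsh (1.32) lie farthest to the right and Ctsh (-0.89) farthest to the left, while most of the other genes lie within 0.5 of 0.

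Cathepsins are the proteases of the lysosome, and of the 10 proteases 2 were higher and 1 was lower. In all 30% passed, against 13.4% of all genes and 18.7% of brighter genes. Ctsk, which encodes the collagen-degrading cathepsin K, gave 5.18, 5.16 and 5.18 on the wild-type arrays and 7.36, 7.46 and 7.59 on the heterozygous arrays. The wild-type arrays all lay below the 5.20 that marks a dim probe set, and the lines did not overlap. The difference was 2.30 (SE 0.08, adjusted p = 9.47e-07 from limma). On the fold scale this was 4.92-fold. The difference was 2.24 without heterozygous replicate 3 and 2.36 without heterozygous replicate 1. Whether so dim a wild-type signal lay above background was not known here, so the difference may understate the rise. Ctsk lies on chromosome 3 at chr3:95499210-95509387.

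Ctsh, which encodes the aminopeptidase cathepsin H, was the protease that fell. It gave 5.76, 6.25 and 5.97 on the wild-type arrays and 5.13, 5.14 and 5.04 on the heterozygous arrays. All 3 heterozygous arrays lay below the wild type and below the dim threshold. The difference was -0.89 (SE 0.12, adjusted p = 0.00214 from limma), or a 1.86-fold lower signal. Without wild-type replicate 2 the difference was -0.76, and without wild-type replicate 1 it was -1.01. Because the heterozygous signal was dim, the difference may understate the fall. Ctsh lies on chromosome 9 at chr9:90054267-90076095.

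Ctsd encodes the aspartic protease cathepsin D, and its CLEAR core is printed above. It gave 12.18, 12.15 and 12.03 on the wild-type arrays and 12.52, 12.50 and 12.53 on the heterozygous arrays. The lines did not overlap, and the heterozygous arrays lay within a narrow range. The difference was 0.40 (SE 0.07, adjusted p = 0.00968 from limma), and without heterozygous replicate 3 the adjusted p was 0.052.

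The other brightly measured proteases differed less. Ctsb, encoding cathepsin B, was lower by 0.19 on the log2 scale without passing (adjusted p = 0.11 from limma), though its arrays did not overlap. With a variance prior that follows the mean signal its adjusted p was 0.0091. Tpp1, the tripeptidyl peptidase lost in a neuronal ceroid lipofuscinosis, differed by 0.05 (95% confidence interval -0.11 to 0.21). Ctsz, encoding cathepsin Z, differed by -0.13 (adjusted p = 0.414 from limma). Ctsl, encoding cathepsin L, had a difference of -0.29 (adjusted p = 0.0832 from limma), which became -0.37 (adjusted p = 0.012) without wild-type replicate 2.

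The promoters of Ctsk, the gene with the largest rise, and of Ctsd differ in these motifs. The 250 bases before each start are printed 5′ to 3′ on the strand of the gene, with every match to CACGTG or TCACGTGA in capitals.
Ctsk, chr3:95498960-95499209, plus strand: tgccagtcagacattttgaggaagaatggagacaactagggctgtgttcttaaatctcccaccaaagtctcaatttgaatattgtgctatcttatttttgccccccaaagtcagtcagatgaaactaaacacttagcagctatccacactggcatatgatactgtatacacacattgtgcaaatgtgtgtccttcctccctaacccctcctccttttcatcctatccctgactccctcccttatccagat
Ctsd, chr7:142387828-142388077, minus strand: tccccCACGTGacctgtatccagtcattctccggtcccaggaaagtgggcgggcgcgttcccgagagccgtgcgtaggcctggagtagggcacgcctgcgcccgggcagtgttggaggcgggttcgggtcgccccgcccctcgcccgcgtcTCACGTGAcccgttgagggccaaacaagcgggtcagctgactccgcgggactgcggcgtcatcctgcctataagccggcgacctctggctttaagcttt
The Ctsd stretch holds an E-box near its far end besides the CLEAR core, and the Ctsk stretch holds none of the 4 motifs searched.

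**Figure D2:**
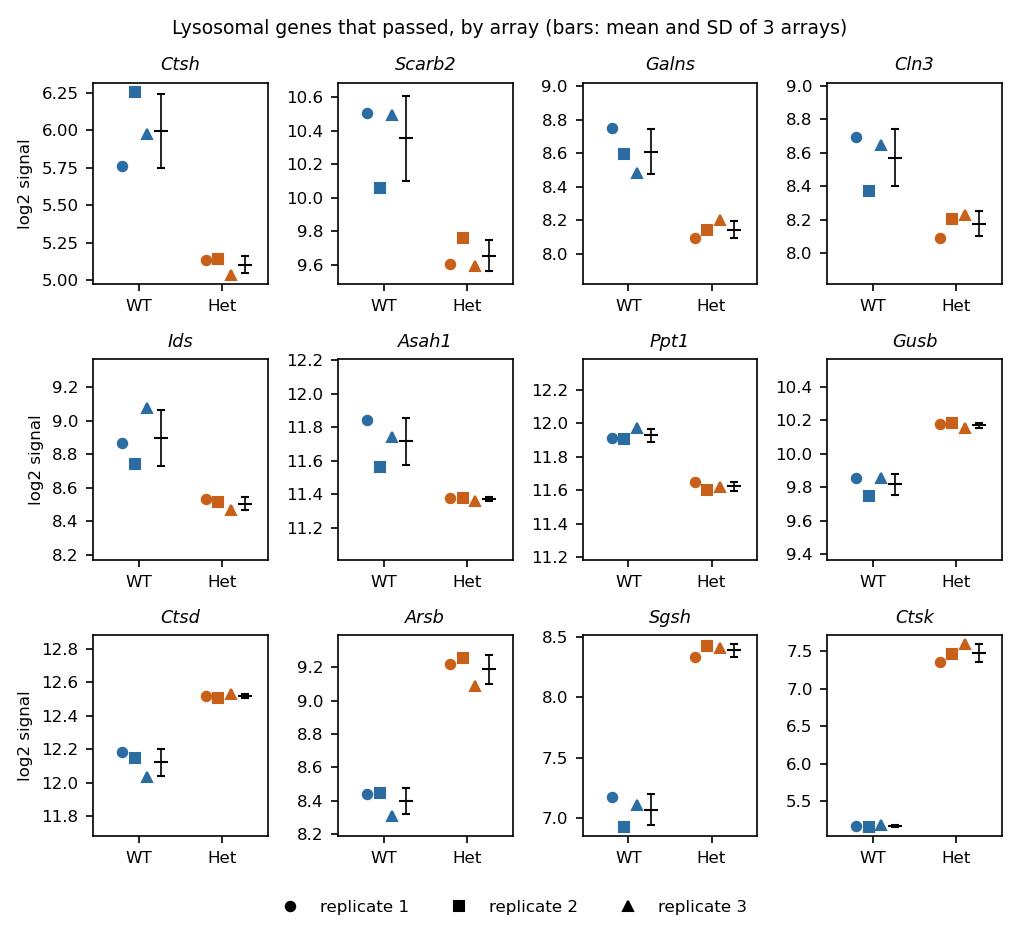
Log2 signal on each of the 6 arrays for the 12 lysosomal genes that passed, with the mean and SD of each line beside its 3 points. In each gene drawn the points of the lines do not overlap, with the widest gap for Ctsk (5.16 to 5.18 against 7.36 to 7.59).

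Of the 6 glycosidases listed, which trim sugars from glycoproteins and glycolipids, 5 were measured and 0 passed (0 also at an unadjusted p under 0.05 in limma). Hexa, the alpha subunit of beta-hexosaminidase, differed by 0.02 (95% confidence interval -0.15 to 0.20). Man2b1, the lysosomal alpha-mannosidase, differed by -0.14 (95% confidence interval -0.31 to 0.03). Gla, the alpha-galactosidase A that is deficient in Fabry disease, differed by -0.06, with an interval from -0.47 to 0.34 that a single array widened. These intervals leave room for differences of either sign.

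Enzymes that break down glycosaminoglycans, the sulphated chains of the matrix, passed in 5 of 7 cases, with 3 higher and 2 lower. That share was 71.4%, against 13.4% of all genes and 18.7% of brighter genes, a contrast that was not tested. Sgsh, the heparan N-sulphatase, gave 7.17, 6.93 and 7.11 on the wild-type arrays and 8.33, 8.43 and 8.41 on the heterozygous arrays. The lines were separated by a gap wider than the spread within either. The difference was 1.32 (SE 0.09), or 2.49-fold, with an adjusted p of 3.28e-05 from limma. Its promoter window was among the 15 with an E-box.

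Arsb, the sulphatase that acts on dermatan and chondroitin sulphate, gave 8.44, 8.45 and 8.31 in the wild type and 9.22, 9.25 and 9.09 in the heterozygous line. No arrays overlapped. The difference was 0.79 (SE 0.08, adjusted p = 0.000427 from limma), and a second probe set for Arsb gave 0.70. Gusb, the beta-glucuronidase, gave 9.85, 9.75 and 9.86 against 10.18, 10.18 and 10.15 in the heterozygous line. The heterozygous arrays were all higher, by 0.35 on average (SE 0.07, adjusted p = 0.0141 from limma), and leaving out any heterozygous array took the adjusted p above 0.05, to 0.065 at most.

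Galns and Ids moved the other way. Galns, the sulphatase that acts on keratan sulphate, gave 8.75, 8.60 and 8.48 in the wild type and 8.09, 8.14 and 8.20 in the heterozygous line. All heterozygous arrays were lower, by 0.47 on average (SE 0.09, adjusted p = 0.0108 from limma; 0.0556 without heterozygous replicate 1). Ids, the iduronate sulphatase, gave 8.87, 8.74 and 9.07 against 8.53, 8.52 and 8.46 in the heterozygous line. The lines did not overlap, and the difference was -0.39 (SE 0.10, adjusted p = 0.0335 from limma). Naglu differed by -0.14 and Idua, the iduronidase, by -0.30 (adjusted p = 0.116 from limma), or -0.39 (adjusted p = 0.0217) without wild-type replicate 2.

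Of 7 lipid-handling proteins 0 were higher and 2 were lower (28.6% in all, against 13.4% of all genes and 18.7% of brighter genes). Asah1, the acid ceramidase, gave 11.84, 11.56 and 11.74 in the wild type and 11.38, 11.38 and 11.36 in the heterozygous line. The heterozygous arrays were all lower, with a difference of -0.34 (SE 0.09, adjusted p = 0.0381 from limma). Ppt1, the palmitoyl-protein thioesterase, gave 11.91, 11.90 and 11.97 against 11.65, 11.60 and 11.62 in the heterozygous line, a difference of -0.31 (SE 0.07, adjusted p = 0.0222 from limma). Its lines did not overlap either. Psap, the precursor of the saposin activators, differed by 0.02 and Npc2, the soluble cholesterol carrier, by -0.04. Arsa, which degrades sulphatide, was higher on each heterozygous array than on any wild-type array, by 0.46 on average, without passing (adjusted p = 0.0725 from limma). It passed with arrays centred on their medians or without wild-type replicate 1, with an adjusted p of 0.0492 at the lowest.

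Of 5 membrane proteins 0 were higher and 2 were lower (40% in all, against 13.4% of all genes and 18.7% of brighter genes). Scarb2, the receptor that carries glucocerebrosidase to the lysosome, gave 10.51, 10.06 and 10.49 in the wild type and 9.60, 9.76 and 9.59 in the heterozygous line. Each heterozygous array lay below the lowest wild-type array. The difference was -0.70 (SE 0.13, adjusted p = 0.00954 from limma). Cln3, whose loss causes juvenile neuronal ceroid lipofuscinosis, gave 8.69, 8.37 and 8.64 against 8.09, 8.20 and 8.23 in the heterozygous line. Its lines did not overlap, and the difference was -0.40 (SE 0.10, adjusted p = 0.0389 from limma).

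With every array included, the other listed membrane proteins had smaller differences and did not pass. Lamp1 gave 12.02, 11.88 and 12.05 in the wild type and 11.94, 11.91 and 11.93 in the heterozygous line. The lines overlapped, with a difference of -0.06 (95% confidence interval -0.23 to 0.12). Lamp2 differed by -0.15 (95% confidence interval -0.36 to 0.05). Npc1, the cholesterol exporter, differed by 0.25 (adjusted p = 0.311 from limma), and by 0.42 (adjusted p = 0.00582) without wild-type replicate 2.

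Of the 15 genes that passed, 5 passed under each of 14 alternative settings: Ctsk, Sgsh, Arsb, Ctsh and Scarb2. Cln3, Ids, Asah1, Ppt1 and the pump gene Atp6v1e1 passed on leaving out wild-type replicate 2 but not on leaving out any of the other 5 arrays. Their highest adjusted p over the settings was 0.147 for Cln3, 0.126 for Ids, 0.131 for Asah1, 0.0957 for Ppt1 and 0.132 for Atp6v1e1.

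Among the pump genes, 1 of 13 V1 subunits was higher, 1 of 8 V0 subunits was higher and 1 lower, and 0 of the 2 accessory proteins passed (0 also at an unadjusted p under 0.05 in limma). In all 12.5% of the 24 pump genes passed, a share near the 13.4% of all genes and below the 18.7% of brighter genes. Atp6v1e1, a stalk subunit of V1, gave 10.55, 10.44 and 10.50 in the wild type and 10.76, 10.79 and 10.80 in the heterozygous line. The lines did not overlap, and the difference was 0.29 (SE 0.07, adjusted p = 0.0326 from limma). The catalytic A subunit, Atp6v1a, differed by 0.03 (95% confidence interval -0.14 to 0.20). The B2 subunit Atp6v1b2 differed by -0.01 (95% confidence interval -0.25 to 0.22), and the D subunit Atp6v1d by -0.01.

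**Figure D3:**
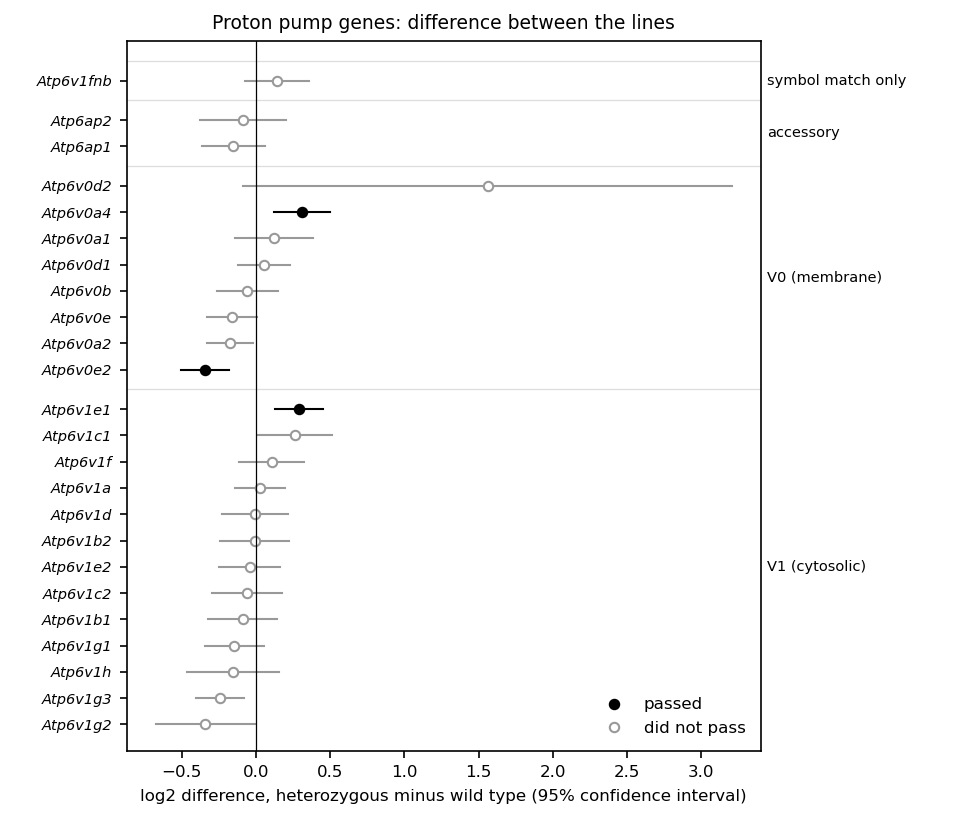
Log2 difference, heterozygous minus wild type, for the 24 pump symbols with 95% confidence intervals, grouped by sector. Most subunits lie close to 0, and Atp6v0d2 (1.56) has by far the widest interval, from -0.09 to 3.21.

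In V0, the membrane sector, the rise was in a form of the a subunit and the fall in a form of the e subunit. Atp6v0e2 gave 10.81, 10.78 and 10.75 in the wild type and 10.38, 10.49 and 10.44 in the heterozygous line. All heterozygous arrays were lower, by 0.35 on average (SE 0.07, adjusted p = 0.0148 from limma). That call was lost without wild-type replicate 1 or without heterozygous replicate 1 or 3 (adjusted p up to 0.0759). The alternative form, Atp6v0e, differed by -0.16 (adjusted p = 0.225 from limma).

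Atp6v0a4, a form of the a subunit best known from kidney, gave 5.27, 5.22 and 5.26 in the wild type and 5.53, 5.69 and 5.47 in the heterozygous line. The wild-type arrays lay just above the 5.20 that marks a dim probe set. The heterozygous arrays were higher by 0.31 (SE 0.08, adjusted p = 0.0422 from limma), and the call was lost on leaving out any of the 6 arrays (adjusted p up to 0.151). Atp6v0a1 differed by 0.12 and Atp6v0b, a proteolipid of the proton-carrying ring, by -0.06. The accessory proteins Atp6ap1 and Atp6ap2 differed by -0.15 and -0.09.

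All 3 pump genes that passed lie on chromosome 6, which holds 6 of the 58 genes. Over 710 genes of chromosome 6 with signal above the dim threshold the median difference was 0.24, against 0.002 over 13958 such genes elsewhere. Of the 3 pump genes, Atp6v1e1 and Atp6v0a4 were higher, and Atp6v0e2 (-0.35) went against the direction of that median. The part of the chromosome 6 shift in the pump genes was not tested.

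Atp6v0d2, a form of the d subunit known from osteoclasts, had the largest pump difference without passing. It gave 7.41, 9.85 and 6.53 in the wild type and 9.41, 9.56 and 9.49 in the heterozygous line. Wild-type replicate 2 lay above all heterozygous arrays and the other wild-type arrays lay below them, so the lines overlapped. The difference was 1.56 (SE 0.71, adjusted p = 0.227 from limma). Without wild-type replicate 2 it was 2.52 (adjusted p = 0.000324), and without wild-type replicate 3 it was 0.86.

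Single wild-type arrays lay apart for a few genes, replicate 2 among them for Atp6v0d2. Its distance from the mean of wild-type replicates 1 and 3 was over 0.5 for 4 of the 58 genes (6.9%), near the 6.48% of all genes. By the same measure wild-type replicates 1 and 3 lay apart for 3 of the 58 genes each, against 1.94% and 3.10% of all genes. The heterozygous arrays lay apart for 0, against 0.44% to 0.94% of all genes. Lipa, the lysosomal acid lipase, gave 12.13, 10.77 and 12.11 in the wild type and 12.11, 12.04 and 12.06 in the heterozygous line. Only wild-type replicate 2 was low, and the difference of 0.40 (adjusted p = 0.523 from limma) became -0.05 without it. Ctsf, encoding cathepsin F and named here after its values were seen, gave 7.0, 5.76 and 6.69 against 6.09, 5.98 and 5.97 in the heterozygous line. Its difference of -0.47 (adjusted p = 0.359 from limma) became -0.83 (adjusted p = 0.00169) without that array. Gla gave 9.25, 9.84 and 9.11 against 9.28, 9.35 and 9.37, with replicate 2 high, and its difference of -0.06 became 0.16.

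**Figure D4:**
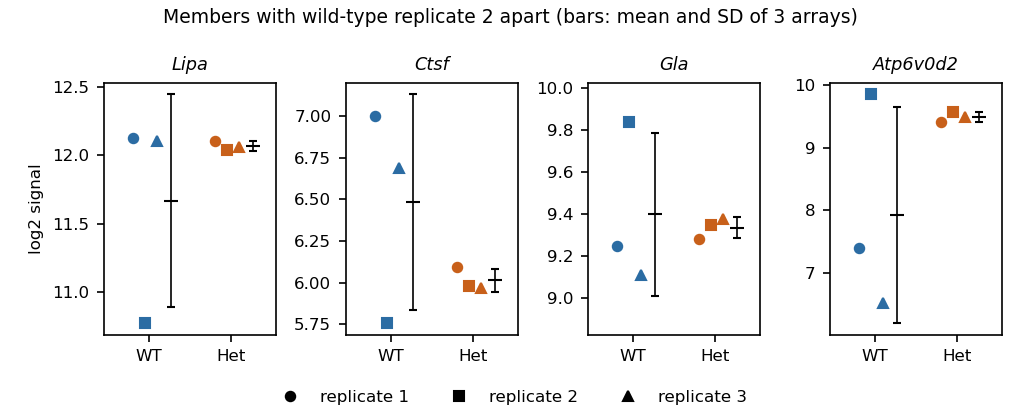
Log2 signal on each array, with the mean and SD of each line, for the genes in which wild-type replicate 2 was more than 0.5 away from the mean of wild-type replicates 1 and 3. Lipa and Ctsf are low and Gla and Atp6v0d2 high on that array, while the 3 heterozygous arrays lie close together.

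Without wild-type replicate 2, 6 lysosomal genes were higher and 10 lower, and 3 pump genes were higher and 4 lower, against 19% of all genes that then passed. All 12 lysosomal genes that passed with 6 arrays still passed, and 4 more did: Npc1, Ctsf, Ctsl and Idua. Among pump genes Atp6v0a4 was lost, and Atp6ap1, Atp6v0a1, Atp6v0d2, Atp6v1g2 and Atp6v1g3 were gained. What set this array apart was not tested.

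Members with and without the promoter motifs were called as follows, against 13.4% of all genes and 18.7% of brighter genes that passed. Of the 7 genes with a CLEAR core, Ctsd was higher, Cln3 was lower and 5 did not pass: Ctsa, Gla, Atp6v0d1, Atp6v0e and Atp6v1a. Of the 15 genes with an E-box, 2 were higher (Ctsd and Sgsh), 1 was lower and 12 did not pass. Of the 32 genes with a window but no E-box in it, 5 were higher, 4 lower and 23 did not pass. The median difference was -0.06 with an E-box and -0.04 without. Of the 6 genes with an M-box, 0 were higher, 2 were lower (Ppt1 and Scarb2) and 4 did not pass. Of the 4 genes with a SOX core, 0 were higher, 1 was lower (Atp6v0e2) and 3 did not pass. The calls were not tested against the motifs.

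Of the 4 factors of the MITF and TFE family, Tfec and Mitf passed. Tfec, a relative of MITF and TFEB, gave 4.60, 4.70 and 4.51 in the wild type and 7.57, 7.60 and 7.44 in the heterozygous line. The wild-type arrays were below the dim threshold and far below the heterozygous arrays. The difference was 2.93 (SE 0.08, adjusted p = 3.12e-07 from limma), which may understate the rise because the wild-type signal was dim. Mitf, the master factor of melanocytes, gave 10.87, 10.92 and 10.81 against 11.53, 11.56 and 11.53, and rose by 0.67 (SE 0.07, adjusted p = 0.000439 from limma). Both genes lie on chromosome 6. Tfeb (-0.10, adjusted p = 0.486 from limma) and Tfe3 (-0.08, adjusted p = 0.591) did not pass.

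**Figure D5:**
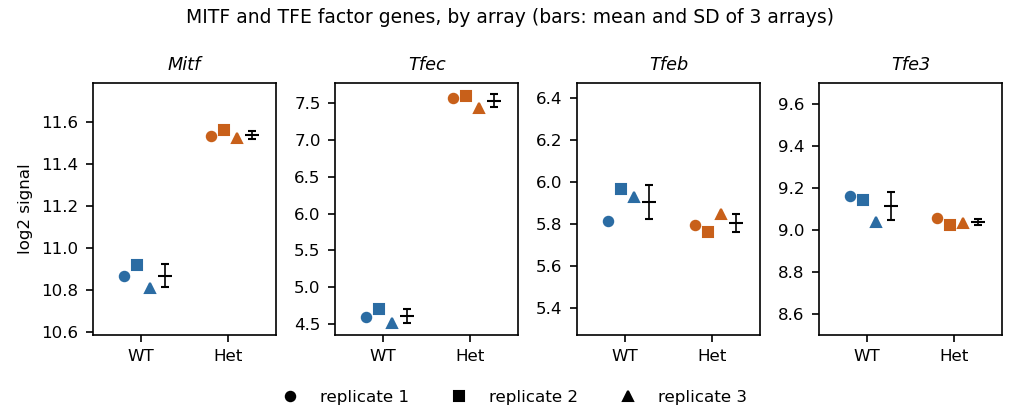
Log2 signal on each array, with the mean and SD of each line, for the 4 factors of the MITF and TFE family. Tfec and Mitf are higher on all heterozygous arrays, while the lines overlap for Tfeb and Tfe3.

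Together with the nutrient sensor that sits on the lysosome, 4 of 20 such genes were higher and 1 lower. In all 25% passed, against 13.4% of all genes and 18.7% of brighter genes. Rragc, a GTPase of that sensor, was higher by 0.30 (adjusted p = 0.0293 from limma). Lamtor4, of the complex that anchors the sensor, was lower by 0.49 on the log2 scale (adjusted p = 0.0466 from limma). Leaving out wild-type replicate 1, or each heterozygous array in turn, ended both calls, and that of Lamtor4 also ended without wild-type replicate 3 or with median centring, with an adjusted p of up to 0.113 for Rragc and 0.156 for Lamtor4.

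Genes next to the pathway were counted in the same way, against the 13.4% of all genes and 18.7% of brighter genes that passed. Of 27 further hydrolases and activators measured, 4 were higher and 4 lower (29.6% in all). Smpdl3a, related to acid sphingomyelinase, had a difference of -3.00 (adjusted p = 0.00423 from limma). On the mean of its probe sets that difference was -1.84, and without wild-type replicate 2 it was -3.64. Naaa, an acid amidase, had a difference of -1.19 (adjusted p = 0.000114 from limma). Ctso, encoding cathepsin O, was higher by 1.12 (adjusted p = 0.0444 from limma, up to 0.131 without wild-type replicate 1 or a heterozygous array), and by 0.73 without wild-type replicate 2. Siae, a sialic acid esterase, was higher by 0.88 (adjusted p = 0.000455 from limma).

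Of 28 further membrane proteins, channels and carriers, 5 were higher and 2 lower (25% in all). Mcoln3, a mucolipin calcium channel, had a difference of -5.42 and Mcoln2, its relative, of 1.26. Cd68 rose by 1.32, and Abcb9, a peptide transporter, had a difference of -0.86.

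Of 20 genes that sort hydrolases to the lysosome, 3 were higher and 0 lower (15%), a share near that of all genes. Gga2, a coat adaptor, rose by 1.18 (adjusted p = 0.00457 from limma), M6pr, a mannose 6-phosphate receptor, by 0.35 (adjusted p = 0.0124), and Cln6 by 0.39 (adjusted p = 0.0388). M6pr lies on chromosome 6. Without any heterozygous array the calls for M6pr and Cln6 were lost (adjusted p up to 0.0642 and 0.141), and that for Cln6 also without wild-type replicate 1 or 3. Of 12 genes of pump assembly and related subunits, 2 were higher (16.7%): Oxr1 by 0.54 (adjusted p = 0.0025 from limma) and Tcirg1, the a3 subunit of V0, by 0.53 (adjusted p = 0.0105, and 0.0541 without heterozygous replicate 3).

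The cultures were checked against markers of their labelled type. All 10 melanocyte markers were above the dim threshold, with a mean signal of 11.23 to 11.54 on wild-type and 11.26 to 11.31 on heterozygous arrays. Of these markers 2 were higher (Kit, 2.29, and Mitf) and 3 lower (Tyr, -2.10, Dct, -0.68, and Oca2, -0.88). In all 50% passed, against 13.4% of all genes and 18.7% of brighter genes. Sox10 itself gave 9.98, 9.80 and 9.95 in the wild type and 9.70, 9.70 and 9.79 in the heterozygous line, a difference of -0.18 (adjusted p = 0.213 from limma). The position of its probe set relative to the insertion was not known here.

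Ctsk, Cd68 and Atp6v0d2 are also known from macrophages and osteoclasts. Of 11 macrophage markers 6 were dim and 0 passed (0 also at an unadjusted p under 0.05 in limma), with mean signals of 5.20 to 5.30 in the wild type and 5.15 to 5.19 in the heterozygous line. Of 7 osteoclast markers 0 were higher and 1, Nfatc1, was lower by 0.66 on the log2 scale (14.3% in all, near the 13.4% of all genes). Fibroblast markers stood at 5.46 to 5.60 in the wild type and 6.73 to 6.78 in the heterozygous line. Of those 9 markers 3 passed (33.3%, against 13.4% of all genes and 18.7% of brighter genes). The other 6 did not pass, and 3 of the 9 were dim. The median difference over the 9 was 0.15, with 6 positive and 3 negative. The 3 that passed were all higher: Dcn (5.92), Pdgfrb (4.08) and Col1a2 (1.24), the last of them on chromosome 6. The part of those fibroblast genes in the rise of Ctsk was not tested, and in bulk samples fewer cells of a type and less RNA per cell cannot be told apart.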

How the data were processed

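RNA of the lines was measured on 6 Affymetrix arrays. The authors deposited log2 signals for 41345 probe sets, made with RMA and Partek per the submitters' processing notes, with versions not given in the sources used here. RMA shares a background and quantile step across arrays, so differences are relative to the other probes. Symbols came from the platform annotation: 23521 probe sets had 1 symbol, 1814 had several and 16010 were not listed. Each gene took its probe set with the highest mean over the 6 arrays.

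Differences were fitted with limma 3.58.1 in R 4.3.3 (lmFit on line, default eBayes, 4 residual and 7.87 total degrees of freedom), two-sided, with Benjamini-Hochberg adjustment over 22180 genes. The code was tested on simulated data. Array medians were 5.72 to 5.78. The number of arrays limits the precision.

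Members and gene lists were chosen with earlier results of these data known. Genes named with values were those that passed, the 3 brightest others per role, those with differences over 0.5, and up to 4 that passed per further list; others were named after their values were seen. Alternatives covered normalization, array weights, the eBayes prior, dim genes, probe set choice, thresholds, a block for replicate number, and leaving out each array in turn. Same-numbered arrays did not deviate together (correlations 0.007, 0.016 and -0.004).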

Additional observations from a re-analysis of the deposited data

How the results depend on the processing

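The median difference stayed below 0 under each alternative, from -0.1008 to -0.0483 for the lysosomal genes and from -0.0511 to -0.0105 for the pump genes (-0.0105 without heterozygous replicate 2 and -0.0128 without wild-type replicate 3). Over the 15 genes that passed, 164 of 210 values kept the call, 46 lost it and 0 changed sign. The count over all genes (2967) ran from 1768 to 4222 with 1 array left out and was 1588 at adjusted p below 0.01 and 782 with a 2-fold threshold added. Lysosomal genes that were higher (5) ran from 3 to 6 with 1 array left out and numbered 2 with the 2-fold threshold. Those that were lower (7) ran from 2 to 10, and numbered 3 with the replicate block, 2 at adjusted p below 0.01 and 0 with the 2-fold threshold. Pump genes that passed (3) ran from 0 to 7, and numbered 5 with array weights, 1 with the replicate block, 0 at adjusted p below 0.01 and 0 with the 2-fold threshold. The stricter thresholds lower counts by construction, and for the other changes the cause was not tested. The labels do not say what a replicate number shares, and the block lost the calls of Cln3, Ids, Asah1, Ppt1, Atp6v1e1, Atp6v0a4, Rragc and Lamtor4. Quantile normalisation lost that of Asah1.

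Among the genes named, signs turned only for differences that had not passed. With array weights Psap was -0.026, Hexa -0.0059, Gla 0.0401, Atp6v1b2 0.0427 and Atp6v1d 0.0086. With median centring Atp6v1b2 was 0.0182 and Atp6v1d 0.0238, and with quantile normalisation Atp6v1d was 0.0082. With 1 array left out the ranges were -0.0170 to 0.0736 for Psap, -0.0477 to 0.63 for Lipa, -0.0930 to 0.0030 for Npc2, -0.0061 to 0.0728 for Hexa, -0.21 to 0.16 for Gla, -0.19 to 0.0576 for Atp6ap2, -0.0814 to 0.0939 for Atp6v1b2, -0.0122 to 0.0514 for Atp6v1a and -0.0595 to 0.0897 for Atp6v1d.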

Other observations

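Inhibitors of cathepsins and genes of autophagy, which delivers cargo to the lysosome, were measured on the same arrays. Of 9 cystatins and other inhibitors 0 were higher and 2 lower (22.2% in all, against 13.4% of all genes and 18.7% of brighter genes). Cst6, encoding cystatin M, had a difference of -1.66 (adjusted p = 0.00124 from limma) and Cst7, encoding cystatin F, of -0.42 (adjusted p = 0.014, lost without heterozygous replicate 1 or 3, where it reached 0.0659 at most). Of 16 autophagy genes 2 were higher and 1 lower (18.75% in all), a share near the 18.7% of brighter genes. Uvrag rose by 0.64 (adjusted p = 0.000778 from limma) and Atg7, the E1-like enzyme of autophagy, by 0.63 (adjusted p = 0.00305). Wipi1 had a difference of -0.38 (adjusted p = 0.0182 from limma), a call kept without wild-type replicate 2 and lost without any of the other 5 arrays, with an adjusted p of 0.0822 at most. Atg7 lies on chromosome 6.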
